A study of Mus musculus with 6 samples.

Results

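The 7 genes described here are 5 CC chemokine ligands, the monocyte chemoattractant proteins Ccl2, Ccl7, Ccl8 and Ccl12 and the eotaxin Ccl11, and 2 receptors, Ccr2 and Ccr3. They were taken by gene symbol from the 22183 genes of the deposited table, each symbol had 1 row, and all 7 passed the filter on low counts. Peritoneal ECs were isolated from 3 mice given saline (saline mice) and 3 given PD fluid (PD mice), and the RNA of each mouse was sequenced as its own library. Both groups were normal male C57BL/6J mice aged 8 to 10 weeks. PD mice received glucose-based Dianeal PD fluid into the peritoneal cavity every day for 6 weeks, and sham-operated saline mice received saline on the same schedule. The sample labels describe magnetic sorting of CD31+ cells, whereas the study's supplementary methods describe digestion of the mesentery and flow sorting of CD31+ CD45- cells.

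CC chemokines are small secreted proteins that direct leukocytes out of the blood and into tissue. In the mouse, Ccl2, Ccl7 and Ccl12 act through Ccr2, which releases Ly6C-high monocytes from the bone marrow and draws them to inflamed sites. Ccl11 acts through Ccr3, the main chemokine receptor of eosinophils, and mouse Ccl8 is best known as a ligand of Ccr8. Endothelial cells, macrophages, fibroblasts and mesothelial cells can all make these ligands, while Ccr2 and Ccr3 are mostly carried by leukocytes.

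The 5 ligand genes lie side by side on chromosome 11 of GRCm38, all on the + strand, within 81.2 kb from the start of Ccl2 to the end of Ccl8. Both receptor genes lie on the + strand of chromosome 9, 70.3 kb apart. The 250 bases upstream of the start site are shown for Ccl8, the ligand with the largest change, and for Ccl12, the ligand next to it in the genome and next to it in the size of the change. The sequences are RefSeq's for GRCm38.p6, from chr11:82114935-82115184 for Ccl8 and chr11:82101595-82101844 for Ccl12, both on the + strand and written 5′ to 3′. Capitals mark the longest run of bases that the pair shares and, nearer the start site, the letters TATAAA.
Ccl8: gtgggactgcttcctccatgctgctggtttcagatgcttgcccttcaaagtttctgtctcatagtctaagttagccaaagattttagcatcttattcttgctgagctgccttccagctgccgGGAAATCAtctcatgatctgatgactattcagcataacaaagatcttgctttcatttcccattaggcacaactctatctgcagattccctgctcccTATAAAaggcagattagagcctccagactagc
Ccl12: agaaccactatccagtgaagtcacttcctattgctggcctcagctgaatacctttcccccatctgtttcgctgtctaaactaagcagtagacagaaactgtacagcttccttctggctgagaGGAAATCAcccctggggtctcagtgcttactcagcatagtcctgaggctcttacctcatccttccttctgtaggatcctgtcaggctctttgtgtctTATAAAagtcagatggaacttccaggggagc
The shared run is GGAAATCA, 8 bases that begin 128 bases before the start site (-128) in both genes. These letters, read on either strand, stood in 0.983% of all 32851 RefSeq promoters of the same length. That share is for this string of letters alone, which was picked because it was the longest that Ccl8 and Ccl12 share. How long a run unrelated promoters share was not tested. Position by position, 90 of the 250 bases were the same in Ccl8 and Ccl12. TATAAA began at -32 in Ccl8 and at -31 in Ccl12 and stood in 12.4% of all promoters.

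Besides TATAAA, 6 motifs were searched on both strands of the same window. With N for any base, they were TGANTCA for AP-1, TTGCNNAA for C/EBP and TTCNNNGAA for STAT proteins, and 3 longer ones. The NF-kB motif was GGG and CC with 5 bases between them, the STAT6 motif was TTC and GAA with 4 bases between them, and the interferon response element was GAAA and GAAA with 2 bases between them. None of these letters stood in the windows of Ccl8, Ccl12 or Ccr2. For Ccr2 the window was chr9:124101933-124102182, upstream of the RefSeq start. Most of it lies inside the gene span given below for Ccr2, which begins at chr9:124101950. The window of Ccr3 held the NF-kB letters at -179, as 45.8% of all promoters did, and the AP-1 letters at -144, as 6.7% did. The promoters of Ccl2, Ccl7 and Ccl11 were not analysed here. A match is a description of the sequence and not evidence of a bound factor.

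Between 21973426 and 26374292 reads were counted on genes in each library, and 14005 genes were tested by the quasi-likelihood test of edgeR, with p-values adjusted by the Benjamini-Hochberg method. The libraries differed between the groups far beyond the 7 genes, with 58.9% of the genes tested passing the threshold, 31.1% higher and 27.8% lower in PD mice. Endothelial markers were higher in PD mice for 11 of 12 genes, the exception being Pecam1, which encodes CD31 and did not pass the test. Leukocyte transcripts were abundant in both groups although the methods give a CD45- gate: in saline mice Ptprc, which encodes CD45, had 2373 ± 127 CPM (SD, n = 3; counts scaled to the library by TMM), and in PD mice it had 1473 ± 63.6 CPM. Marker genes of pancreatic acinar cells (8 of 8), mesothelial cells (6 of 6), mural cells (5 of 5) and mast cells (6 of 6) were higher in PD mice, those of B cells were lower (5 of 5), and 2 of 5 T cell markers were lower. Summed acinar markers ran from 2.23 to 5.81 CPM in saline mice and from 6890 to 7770 CPM in PD mice. The part of these other cells in the results below was not tested, and in bulk RNA fewer cells of a type and less RNA per cell cannot be told apart.

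Of the 5 ligands, Ccl8, Ccl12, Ccl7 and Ccl2 were higher in PD mice and Ccl11 did not pass the test. The log2 fold changes of the first 4 ran from 1.89 to 5.06. Both receptors were also higher, with smaller changes of 1.27 for Ccr2 and 1.43 for Ccr3. Altogether 6 of the 7 genes were higher and none was lower, against 31.1% and 27.8% of all genes tested. The CPM of 6 genes did not overlap between groups, with PD mice above, as in 34% of genes tested, while PD mice were below in 31.6% of genes tested and in none of the 7. The median log2 fold change was 1.89 over the 7 genes and 0.02 over all genes tested. These directions hold for libraries scaled by TMM, and scaling to marker genes, described further on, changed some of them. Relative to fibroblast markers all but Ccl8 were lower, whereas relative to leukocyte markers all 7 genes were higher.

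**Figure D1:**
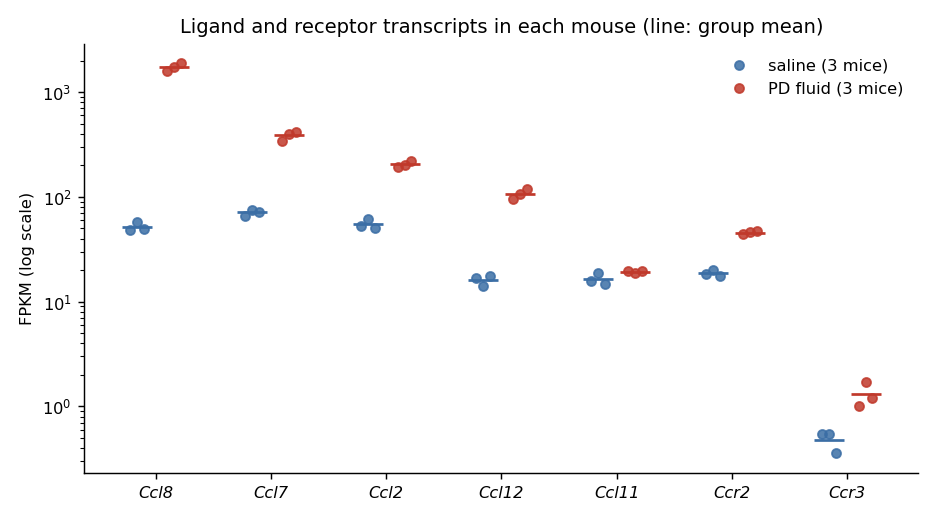
FPKM on a log scale of each of the 7 genes in each of the 3 saline mice and 3 PD mice, each point 1 mouse and each line a group mean. The groups do not overlap except for Ccl11, and Ccl8 rises from a mean of 51.6 to 1727 FPKM. FPKM is scaled to all genes, and relative to fibroblast markers only Ccl8 was higher.

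Ccl8 (ENSMUSG00000009185, chr11:82115185-82116799), also called MCP-2, had 24.6, 29.8 and 25.1 CPM in the saline mice and 784, 880 and 981 CPM in the PD mice. Every PD mouse was far above every saline mouse, and the means of 26.5 ± 2.90 and 882 ± 98.6 CPM (SD, n = 3) differed 33.3-fold. The log2 fold change was 5.06 ± 0.11 (SE), with a 95% interval from 4.81 to 5.30 (adjusted p = 3.74e-11). By log2 fold change Ccl8 ranked 90 among the 14005 genes tested. At least 605 reads in each saline mouse and 20976 in each PD mouse lay behind these values.

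Ccl12 (ENSMUSG00000035352, chr11:82101845-82103400), the mouse chemokine MCP-5, had 9.06, 7.70 and 9.40 CPM in the saline mice and 49.5, 57.4 and 65.2 CPM in the PD mice. The groups were well apart, with a log2 fold change of 2.71 ± 0.13 (SE, 95% interval from 2.44 to 2.99, adjusted p = 2.26e-08). It was the least abundant of the 4 ligands that rose, from means of 8.72 ± 0.90 to 57.4 ± 7.86 CPM, or from 16.2 to 107 on the FPKM scale.

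Ccl7 (ENSMUSG00000035373, chr11:82045712-82047525), or MCP-3, had 53.0, 61.4 and 57.3 CPM in the saline mice and 267, 321 and 341 CPM in the PD mice. All PD mice were above all saline mice, with a log2 fold change of 2.44 ± 0.10 (SE, 95% interval from 2.22 to 2.65, adjusted p = 7.04e-09). Ccl2 (ENSMUSG00000035385, chr11:82035571-82037453), or MCP-1, the best studied ligand of Ccr2, had 42.9, 50.2 and 41.2 CPM in the saline mice and 151, 165 and 181 CPM in the PD mice. Its groups did not overlap either, and its log2 fold change was 1.89 ± 0.10 (SE, 95% interval from 1.68 to 2.10, adjusted p = 4.24e-08). Ccl2 was thus the least changed of the 4 monocyte chemoattractant genes, and its interval did not reach those of Ccl7 and Ccl12.

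Ccl11 (ENSMUSG00000020676, chr11:82057823-82062955), or eotaxin-1, had 17.2, 20.8 and 16.02 CPM in the saline mice and 20.4, 20.1 and 21.7 CPM in the PD mice. The groups overlapped, because the second saline mouse lay above the lower 2 PD mice. The log2 fold change was 0.21 ± 0.12 (SE), with a 95% interval from -0.05 to 0.46 (adjusted p = 0.151), which holds no change as large as that of any other ligand of the cluster. Without the second saline mouse, the saline library with the lowest total, the change was 0.32 and passed the test (adjusted p = 0.0294). Whether a small difference in Ccl11 passed the test therefore depended on that library, while a difference of the size seen for Ccl2 lay outside the interval.

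Ccr2 (ENSMUSG00000049103, chr9:124101950-124113557), the receptor of Ccl2, Ccl7 and Ccl12, had 61.4, 68.6 and 57.7 CPM in the saline mice and 144, 150 and 159 CPM in the PD mice. The groups did not overlap, and the log2 fold change was 1.27 ± 0.08 (SE, 95% interval from 1.10 to 1.45, adjusted p = 2.61e-07). Markers of Ly6C-high monocytes, the cells that carry most Ccr2, went both ways. Of 7 markers, 5 were higher in PD mice, with log2 fold changes from 0.42 for Ly6c2 to 4.12 for Chil3, and 2 were lower, among them Plac8, which fell by 0.83 on the log2 scale. Their summed level ran from 1492 to 1664 CPM in saline mice and from 1798 to 1838 CPM in PD mice, and none was at 0 in either group. The part of these cells in the Ccr2 result was not tested.

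Ccr3 (ENSMUSG00000035448, chr9:124021972-124031689), the eotaxin receptor, was the lowest of the 7 genes, with 46, 39 and 28 reads in the saline mice and 88, 132 and 89 reads in the PD mice. This corresponded to 1.80, 1.80 and 1.16 CPM in saline mice and 3.24, 5.54 and 4.03 CPM in PD mice. The groups did not overlap, and the log2 fold change was 1.43 ± 0.28 (SE, 95% interval from 0.81 to 2.04, adjusted p = 0.00124). On the log2(FPKM + 1) scale, which understates changes of low genes, it was 0.63 ± 0.12 (SE, limma-trend, adjusted p = 0.00182). Its spread between mice, with coefficients of variation of 23.2% (saline) and 27.3% (PD fluid), was wider than that of the other 6 genes, which lay between 4.28% and 13.7%.

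Eosinophil markers were low in both groups. Of 7 markers, 5 were tested, and Epx, Prg2, Siglecf and Ear2 were higher in PD mice while Il5ra was lower. Epx, which encodes the peroxidase of eosinophil granules, had 2, 0 and 4 reads in the saline mice and 46, 41 and 50 reads in the PD mice. The summed level ran from 42.0 to 43.7 CPM in saline mice and from 36.3 to 39.9 CPM in PD mice, and Il5ra, which some B cells also express, made up most of it in saline mice (34.5 ± 0.57 CPM). No eosinophil marker was at 0 in every mouse of a group, and the part of these cells in the Ccr3 result was not tested.

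Levels of different genes were compared on the length-scaled FPKM of the authors. In saline mice the order from the highest was Ccl7 at 71.2 ± 4.84 FPKM (SD, n = 3), Ccl2 at 54.8 ± 5.38, Ccl8 at 51.6 ± 5.22, Ccr2 at 18.6 ± 1.30, Ccl11 at 16.6 ± 2.11, Ccl12 at 16.2 ± 1.80 and Ccr3 at 0.482 ± 0.109. The values of Ccl2 and Ccl8 overlapped, as did those of Ccr2, Ccl11 and Ccl12 with their neighbours, so that these ranks were not separated. In PD mice the order was Ccl8 at 1727 ± 147 FPKM, Ccl7 at 387 ± 38.7, Ccl2 at 204 ± 13.5, Ccl12 at 107 ± 11.8, Ccr2 at 45.7 ± 1.19, Ccl11 at 19.2 ± 0.54 and Ccr3 at 1.31 ± 0.35. Here no 2 neighbours overlapped. Ccl8 moved from the third place to the first, and Ccl12, level with Ccl11 in saline mice, stood well above it in PD mice.

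The make-up of the ligand pool changed with it. The summed level of the 5 ligands was 210 ± 14.8 FPKM (SD, n = 3) in saline mice and 2444 ± 209 FPKM in PD mice. Ccl8 made up 24.5 ± 0.73% of that sum in saline mice and 70.7 ± 0.37% in PD mice. The share of every other ligand was smaller in PD mice. It went from 33.9 ± 1.14% to 15.8 ± 0.50% for Ccl7, from 26.02 ± 1.02% to 8.35 ± 0.18% for Ccl2, from 7.76 ± 1.33% to 4.37 ± 0.11% for Ccl12 and from 7.86 ± 0.53% to 0.790 ± 0.07% for Ccl11. The pool in saline mice was thus spread over Ccl7, Ccl2 and Ccl8, and that in PD mice was mostly Ccl8. These shares concern transcripts and are given without a test, and no share depends on how the libraries were scaled to each other.

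**Figure D2:**
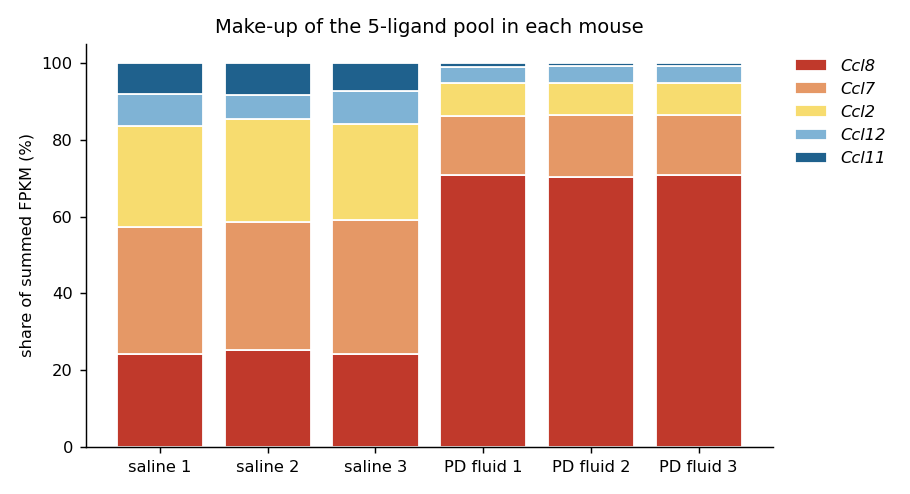
Share, in percent of the summed FPKM of the 5 ligands, of each ligand in each of the 3 saline mice and 3 PD mice, with 1 stacked bar per mouse. Ccl8 takes 24.5% of the pool on average in saline mice and 70.7% in PD mice, and the mice of a group look alike.

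Ratios of members within a mouse do not depend on the scaling of the library. The ratio of Ccl8 to Ccl2 on the FPKM scale was 0.913, 0.946 and 0.968 in the saline mice and 8.28, 8.49 and 8.60 in the PD mice. Their relative level was therefore almost the same in all mice of a group and differed by 3.17 on the log2 scale between groups. The ratio of Ccl8 to Ccl11 was 3.02, 3.04 and 3.31 in saline mice and 81.4, 92.7 and 95.5 in PD mice. The smallest differences among the 4 monocyte chemoattractant genes did not involve Ccl8. The ratio of Ccl12 to Ccl7, which lie on either side of Ccl11, was 0.255, 0.187 and 0.245 in saline mice and 0.277, 0.267 and 0.285 in PD mice, a log2 difference of 0.28, and that of the neighbours Ccl7 and Ccl2 differed by 0.54. The ratio of the neighbours Ccl8 and Ccl12 differed by 2.34.

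Between ligand and receptor, the ratio of Ccl2 to Ccr2 was 2.88, 3.04 and 2.90 in the saline mice and 4.29, 4.44 and 4.65 in the PD mice. The ratio of Ccl11 to Ccr2 went the other way, with 0.868, 0.944 and 0.849 in the saline mice and 0.437, 0.407 and 0.419 in the PD mice. Relative to each of the other 6 genes, Ccl11 was lower in every PD mouse than in any saline mouse. The ratio of Ccr3 to Ccr2 was 0.0299, 0.0270 and 0.0203 in saline mice and 0.0229, 0.0371 and 0.0257 in PD mice, and these groups overlapped (exact permutation test, two-sided, p = 0.7). In all, 21 ratios were compared, and the smallest p that 3 mice against 3 allow is 0.1 (0.111 adjusted over the 21), so that no ratio could pass a threshold of 0.05.

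Cell type markers differed between the groups as well, in both directions. All 11 macrophage markers were higher in PD mice, and their summed level ran from 1171 to 1193 CPM in saline mice and from 4677 to 4845 CPM in PD mice. All 7 fibroblast markers were higher, with a sum from 89.4 to 95.9 CPM in saline mice and from 828 to 863 CPM in PD mice. The sum of the 12 endothelial markers ran from 1153 to 1163 CPM in saline mice and from 1845 to 1952 CPM in PD mice. The sum of the 5 general leukocyte markers was lower, from 6401 to 6764 CPM in saline mice and from 4999 to 5068 CPM in PD mice, with 4 markers lower and Laptm5 higher. No marker of these lists was at 0 in every mouse of a group. Which of these cells held the chemokine transcripts was not tested.

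The same counts were therefore scaled to each of these marker lists, in place of all genes, with the macrophage and fibroblast lists added after the data were seen. Relative to endothelial markers the median of all genes tested shifted to -0.96, and Ccl8, Ccl12, Ccl7, Ccl2 and Ccr2 stayed higher in PD mice, with log2 fold changes of 4.08, 1.74, 1.46, 0.91 and 0.29. Ccr3 no longer passed the test (0.45, adjusted p = 0.161) and Ccl11 was lower (-0.78, adjusted p = 4.38e-05). Relative to leukocyte markers the median shifted to 0.39 and all 7 genes were higher, Ccl11 with a log2 fold change of 0.58 (adjusted p = 0.00117).

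Relative to macrophage markers the median of all genes shifted to -1.84. Ccl8, Ccl12 and Ccl7 stayed higher, with log2 fold changes of 3.20, 0.85 and 0.57. Ccl2 did not differ beyond the spread between mice (0.03 ± 0.09 SE, adjusted p = 0.765), Ccr2 was lower (-0.59, adjusted p = 1.26e-05), Ccl11 was lower (-1.65), and Ccr3 did not pass (-0.43, adjusted p = 0.167). Relative to fibroblast markers the median shifted to -3.19, only Ccl8 stayed higher (1.84 ± 0.15 SE, adjusted p = 5.49e-14), and the other 6 genes were lower, with log2 fold changes from -0.48 for Ccl12 to -3.02 for Ccl11. Ccl8 was thus higher relative to each of these 4 marker lists, while the direction of the other 6 genes depended on which of them was the reference. Under TMM scaling the fibroblast markers themselves ran from 2.35 for Pdgfra to 3.91 for Lum. That range holds the values of Ccl12 (2.71) and Ccl7 (2.44). The errors and p-values take the mean of each list as fixed and leave out the spread of its markers. The remaining marker lists were not used as references. Among them, the acinar list had a median log2 fold change of 11.8 under TMM scaling, above the 5.06 of Ccl8.

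**Figure D3:**
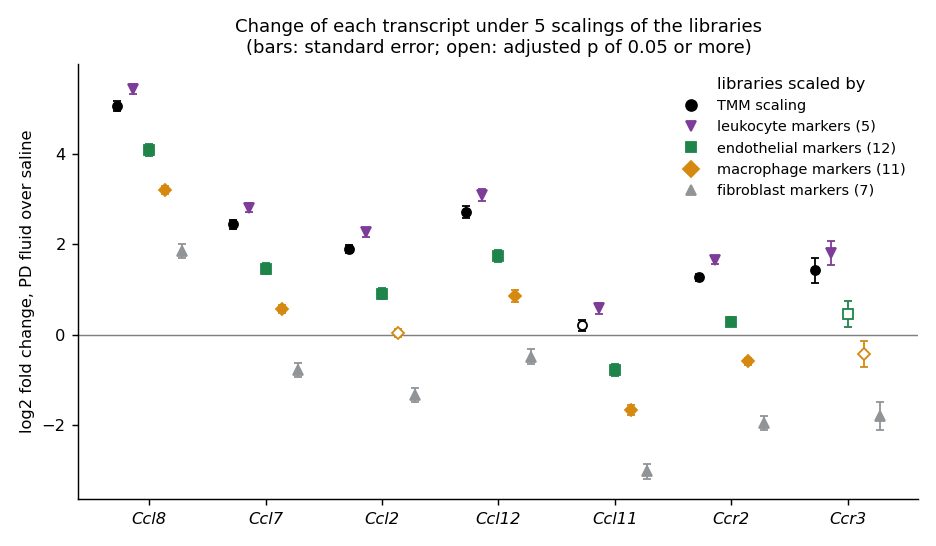
Log2 fold change of PD mice over saline mice for each of the 7 genes under 5 scalings of the libraries, with bars for the standard error and open points for an adjusted p of 0.05 or more. Ccl8 lies above 0 under each scaling, from 1.84 to 5.43, and every other gene lies below 0 under at least the scaling to fibroblast markers.

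Apart from Ccl11, the changes grew along the cluster from Ccl2 to Ccl8. Whether position orders the changes was not tested. Going along chromosome 11, log2 fold changes were 1.89 for Ccl2, 2.44 for Ccl7, 0.21 for Ccl11, 2.71 for Ccl12 and 5.06 for Ccl8. Ccl11, the gene that did not pass the test, is the middle of the 5. It is 10.3 kb from Ccl7 and 38.9 kb from Ccl12, whereas Ccl2 and Ccl7 are 8.3 kb apart and Ccl12 and Ccl8 are 11.8 kb apart. Within 200 kb on either side of the ligands, the annotation holds Asic2, 5530401A14Rik, Gm17268 and Ccl1, and none of them had enough reads to be tested. Ccl1, another CC chemokine, had 34 reads over the 6 mice.

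Around the receptors, the related gene Ccr1, upstream of Ccr3, was also higher in PD mice, with a log2 fold change of 0.94 ± 0.09 (SE). Farther out, the chemokine receptor Xcr1 (-0.11, adjusted p = 0.523) and Fyco1 (-0.17, adjusted p = 0.17), which acts in vesicle transport, did not pass the test, and 2010315B03Rik was lower (-0.80). Relative to macrophage or fibroblast markers 25 and 30 of the 31 other genes of the pathway tested were lower. Of all 14005 genes tested, 12312 and 13564 were lower under these scalings. The directions given here are for TMM scaling. Ccl2 is overlapped by Gm17268 on the opposite strand, but their exons do not overlap and no reads were counted on Gm17268 in any mouse. No pair of the 7 genes shared a run of 50 bases in their GENCODE M21 transcripts, a length at which reads could be split between genes.

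**Figure D4:**
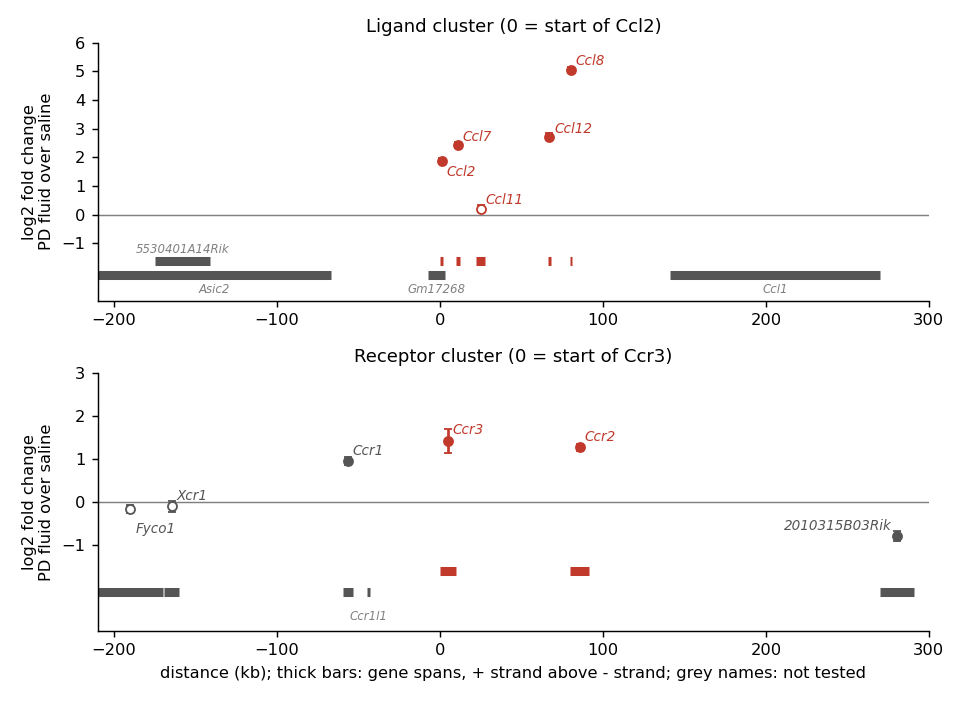
Log2 fold change of PD mice over saline mice (points, bars for the standard error, open where the adjusted p was 0.05 or more) against the distance in kb from the start of Ccl2 or of Ccr3, with gene spans drawn as thick bars and the 7 genes in red. Ccl11 lies near 0 between Ccl7 and Ccl12. Values are for TMM scaling, and relative to fibroblast markers only Ccl8 among the red points was above 0.

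Among 34 other genes of the same pathway, 31 were tested, and 20 were higher and 3 lower in PD mice. Of all genes tested, 31.1% were higher and 27.8% lower. The median log2 fold change of the pathway genes was 0.57 against 0.02 for all genes tested. Under scaling to endothelial markers 7 pathway genes were higher and 15 lower. Of all 14005 genes tested, 1153 were higher and 10127 lower under that scaling. Of other ligands of the same receptors, Ccl5, a T cell and monocyte chemoattractant, went from 53.3 ± 2.99 to 75.9 ± 3.97 CPM (log2 fold change 0.51 ± 0.08 SE, adjusted p = 0.000206). Ccl24, or eotaxin-2, went from 13.9 ± 0.55 to 19.2 ± 0.94 CPM (0.47 ± 0.10). Both changes were well below those of the 4 monocyte chemoattractant genes. Of the remaining eotaxin-like ligands, no reads were counted on Ccl26 in any mouse and too few on Ccl28 for a test.

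All 6 related receptors were higher in PD mice. The largest change was that of Ccrl2, an atypical receptor that binds the chemoattractant chemerin, which rose from 30.8 ± 1.37 to 123 ± 1.09 CPM (log2 fold change 2.003 ± 0.07 SE). Ccr1, which shares ligands with this cluster, had a change of 0.94, and the atypical receptors Ackr1 (1.12) and Ackr2 (0.91) bind inflammatory chemokines without signalling through G proteins. Ccr8, the receptor of mouse Ccl8, had 298, 335 and 253 reads in the saline mice and 479, 447 and 476 reads in the PD mice, and its log2 fold change of 0.63 ± 0.15 (SE, adjusted p = 0.0047) was far below that of its ligand.

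Genes that carry the signal from these receptors changed little. Of 7, only Arrb2, which encodes an arrestin, was higher (0.25). Rac2, a GTPase of leukocytes, fell by 0.41 and Nup85, whose product binds Ccr2, fell by 0.33 on the log2 scale. Gnai2, Gng2, Pik3cg and Ptk2b did not pass the test, with values from -0.11 to 0.12. Under scaling to leukocyte markers none of the pathway genes was lower, against 785 of all 14005 genes tested.

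Cytokines and receptors that can induce the cluster moved more. Il6 had a log2 fold change of 3.01 ± 0.17 (SE), Tnf one of 2.66 ± 0.11, Il1b one of 2.41 ± 0.09, Il5, the growth factor of eosinophils, one of 2.09 ± 0.44 and Tlr4, a receptor for bacterial lipopolysaccharide, one of 0.75 ± 0.12, and all 5 passed the test. Il5 rested on 7, 9 and 7 reads in the saline mice and 23, 36 and 41 in the PD mice. Of the T cell cytokines, Ifng did not pass (0.22, adjusted p = 0.437), and neither did Il4 (0.80, adjusted p = 0.0875), which together with Il13 is known to induce eotaxins. Il13 had 0 reads in each saline mouse and at most 2 in a PD mouse and was not tested.

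Of 7 transcriptional regulators, 5 were higher in PD mice. They were Jun, a part of AP-1 (0.91), Nfkbia, an NF-kB target that encodes its inhibitor (0.83), Irf1 (0.47), Rela (0.40) and Stat6 (0.37), which acts downstream of Il4. Nfkb1 did not pass the test (0.06, adjusted p = 0.582). Zfp36, whose product directs the decay of inflammatory transcripts, went from 486 ± 48.4 to 1284 ± 157 CPM (1.40 ± 0.10 SE), and Zc3h12a, an endonuclease with a like role, did not pass (0.57, adjusted p = 0.0561).

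**Figure D5:**
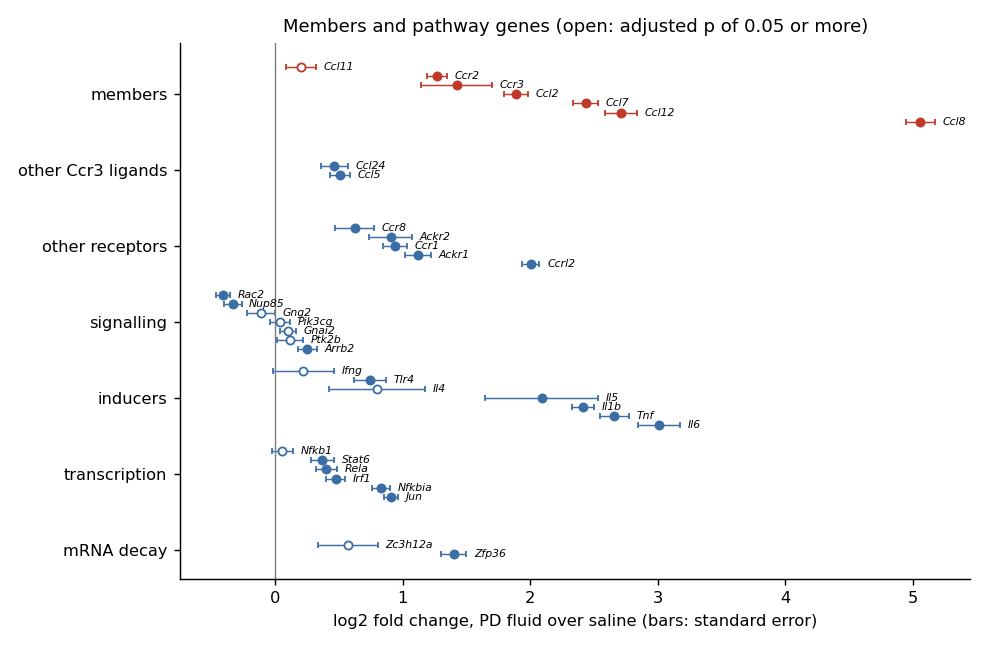
Log2 fold change of PD mice over saline mice under TMM scaling, with bars for the standard error, of the 7 genes and of tested genes of the 6 pathway lists, with open points where the adjusted p was 0.05 or more. Ccl8 lies farthest to the right at 5.06, and the signalling genes lie near 0. Under scaling to fibroblast markers none of the pathway genes was called higher, against 109 of all 14005 genes tested.

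The pattern over the 6 mice was shared with many other genes. Among 2529 genes with a change of at least 1 on the log2 scale, 499 had a Pearson r above 0.99 with Ccl8 and 329 with Ccr2 over the 6 libraries. Most like Ccl8 were Metrnl, Pf4, Gp2, Cxcl13 and Dcn, each with r of 0.9999, and most like Ccr2 were Pla2g7, Cd300ld, Igf1, Ccl3 and Alox5ap, with r from 0.9993 to 0.9997. Gp2 is known as a gene of pancreatic acinar cells and Dcn as one of fibroblasts. Since the 6 points fall into the 2 treatment groups, these correlations mostly restate the difference between groups, and they are given without a test.

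Within a group the highest CPM of most members fell in the library with the lowest total. In saline mice 6 of the 7 genes had their highest CPM in the second mouse, the saline library with the lowest total, and Ccl12 in the third. In PD mice 6 of 7 had their highest CPM in the third mouse, the PD library with the lowest total, and Ccr3 in the second. The share of all genes tested with this pattern was not counted, so the pattern may not be particular to the 7 genes. The part of library depth in this spread was not tested, and the ratios between members given above do not depend on it.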

How the data were processed

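RNA from sorted peritoneal ECs of 3 saline and 3 PD mice was captured with oligo(dT), made into NEBNext Ultra libraries and sequenced on an Illumina NovaSeq. The authors deposited a read count for each gene and mouse, without normalization, and the FPKM of each gene and mouse as computed by the authors. The submitters' processing notes name fastp 0.18.0, Bowtie2 2.2.8, HISAT2, StringTie 1.3.1 and RSEM. The genome build, the annotation and the handling of strand are not given in the sources used here, so reads of overlapping antisense genes cannot be told apart. Columns with the authors' group means, log2 ratios, p-values and FDR were not used, and every column of sample values was matched to a mouse (0 unmatched).

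Counts were filtered with filterByExpr, scaled by TMM and tested with edgeR 4.0.16 (R 4.3.3; glmQLFTest, no covariate, Benjamini-Hochberg over 14005 genes, threshold 0.05). The paper's methods name limma, so limma-voom (limma 3.58.1) was an alternative beside DESeq2 1.42.0. CPM values are scaled by TMM. Ratios and marker levels, the mean of log2(CPM + 1), were tested with exact permutations of the mice (two-sided). All 12 marker lists had an exact permutation p = 0.1, the smallest possible. Positions come from GENCODE M21 by Ensembl identifier, and 4 of the 7 genes matched the RefSeq promoter table. Tables were made with Python 3.11.15.

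The genes named are the 7 genes, all genes of the pathway lists, markers whose values stand beside a result, the neighbours within 200 kb and the 5 genes most correlated with Ccl8 and with Ccr2. The 7 genes and the lists were chosen with earlier results of these data known, and the study itself displays some of these genes from the same libraries, so they are not independent evidence. On data simulated from the real means and library sizes, edgeR recovered 140 of 150 genes changed by at least 1 on the log2 scale. That run held 14005 genes, changed ones included, and 21 unchanged genes were called. Recovery with as large a share of changed genes as in these libraries, where 58.9% passed, was not tested. Single values of some list genes are not reported here or shown in the figures, and counts over a list include them. Each library is 1 mouse. Intervals cover the spread between mice.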

Additional observations from a re-analysis of the deposited data

How the results depend on the processing

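Ccl8 was higher in PD mice and passed the test under all 16 alternatives, with log2 fold changes from 1.84 to 5.43. DESeq2, limma-voom, library totals, no filter on low counts and limma-trend on log2(FPKM + 1) changed no call of the 7 genes, but the last of these gave Ccr3, which lies near 1 FPKM, a log2 fold change of 0.63 in place of 1.43. Leaving out 1 mouse at a time moved Ccl8 between 4.98 and 5.15, Ccl12 between 2.62 and 2.81, Ccl7 between 2.37 and 2.53, Ccl2 between 1.82 and 1.98, Ccr2 between 1.21 and 1.34, Ccr3 between 1.20 and 1.59 and Ccl11 between 0.12 and 0.32. Only Ccl11 changed its call, without the second saline mouse (0.32). With the replicate number as a block, 4242 genes were higher and 3667 lower, and no call of the 7 genes changed (Ccl8 5.05, Ccr3 1.41 and Ccl11 0.21). After the group mean of each gene was subtracted from its log2 CPM, same-numbered mice correlated at 0.19, 0.07 and -0.27. Not every mouse correlated best with its own number. With 3 mice in each group these correlations cannot decide whether the mice were paired.

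Scaling to marker genes moved the median of all genes, and with it the calls. Endothelial scaling gave 1153 genes higher and 10127 lower, 7 pathway genes higher and 15 lower, Ccl11 at -0.78, Ccr3 at 0.45 and the mast cell list at -0.29. Leukocyte scaling gave 7627 genes higher and 785 lower, 0 pathway genes lower by edgeR (1 at an unadjusted p under 0.05), Ccl11 at 0.58 and the T cell list at 0.27. Macrophage scaling, added after seeing the data, called 12673 genes, 361 higher and 12312 lower, with 3 pathway genes higher and 25 lower, Ccl2 at 0.028, Ccl11 at -1.65, Ccr2 at -0.59 and Ccr3 at -0.43. Fibroblast scaling, also added, called 13673 genes, 109 higher and 13564 lower, with 0 pathway genes higher by edgeR (0 at an unadjusted p under 0.05) and 30 lower. Under it Ccl2 was at -1.33, Ccl7 at -0.78, Ccl11 at -3.02, Ccl12 at -0.48, Ccr2 at -1.95 and Ccr3 at -1.79. On CPM in place of FPKM, which ignores gene length, the pool shares in saline and PD mice were 17.0% and 61.4% for Ccl8, 36.9% and 21.6% for Ccl7, 28.8% and 11.6% for Ccl2, 11.6% and 1.45% for Ccl11 and 5.67% and 3.99% for Ccl12. Counts were low for Ccr3 (28 to 132 reads), Il5 (7 to 41) and Il4 (12 to 32), and too low for a test of Il13, Ccl26 and Ccl28.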
